A study of Sus scrofa with 6 samples.

Results

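The 7 genes that encode the subunits of AMP-activated protein kinase (AMPK) were examined in LT (longissimus thoracis) and ST (semitendinosus) muscles of Min pigs. They were chosen by gene symbol: PRKAA1 and PRKAA2 for the alpha subunit, PRKAB1 and PRKAB2 for the beta subunit, and PRKAG1, PRKAG2 and PRKAG3 for the gamma subunit. All 7 were among the 25973 protein-coding gene identifiers listed, and all passed the filter that left 19672 genes for testing. RNA of both muscles from 3 Min pigs, a Chinese local breed, aged 210 days was sequenced, which gave 3 LT and 3 ST libraries. No treatment or genetic modification of these animals is named in the sources used here, and their alleles of the 7 genes were not examined. LT and ST libraries with the same number came from the same pig. The value per transcript is FPKM, the fragments of a transcript scaled by its length and by the mapped fragments of the library, and a gene level is the sum of FPKM over its transcripts. The files give no read counts. Fragments behind single values were not estimated from library depth and transcript length, so no counting intervals were computed.

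AMPK is a sensor of cellular energy made of a catalytic alpha subunit, a beta subunit that holds the complex together and binds glycogen, and a gamma subunit that binds AMP, ADP and ATP. It becomes active when AMP rises and ATP falls and when an upstream kinase, chiefly STK11, phosphorylates the alpha subunit, and it then favors glucose uptake and fat oxidation over synthesis. Skeletal muscle is known for complexes with the alpha subunit of PRKAA2 and the beta subunit of PRKAB2. PRKAG3 is largely restricted to skeletal muscle, above all to fast glycolytic fibers, and in pigs it is known as a gene of muscle glycogen content and meat quality.

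The libraries were first compared with their labels. Muscle genes were abundant in all 6, with summed FPKM of ACTA1, the skeletal muscle actin, from 1768 to 3025 and of CKM, the muscle creatine kinase, from 1807 to 2753. The 7 measured genes of the slow fiber list summed to 6813, 4468 and 5227 FPKM in LT and to 37138, 6015 and 37490.2 FPKM in ST of pigs 1, 2 and 3. The 6 measured genes of the fast fiber list summed to 27356, 27752 and 20819.5 FPKM in LT and to 4347, 18604 and 1068 FPKM in ST. ST of pig 2 thus stood apart from the other ST libraries and lay near LT for both lists. Over all genes it was also the only library whose mean Pearson correlation was higher with the other muscle (0.954) than with its own (0.951). The main results are therefore given with and without ST of pig 2. Since that library was singled out by values of these same data, all results without it are a description and not a test. Mitochondrial transcripts held 5.90, 5.36 and 8.16% of the summed FPKM in LT and 14.3, 12.1 and 15.4% in ST. Their effect on the scaling was taken out by rescaling to nuclear transcripts. This moved the log2 fold change of ST against LT from -2.85 to -2.74 for PRKAG3 and from 1.16 to 1.27 for PRKAG1. Any other part of theirs in the differences of other genes was not tested.

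PRKAB2 and PRKAA2 were the most abundant of the 7 genes in both muscles. In LT, the levels ran from PRKAB2 (99.5 ± 4.79 FPKM, SD, n = 3) over PRKAA2, PRKAG3, PRKAG1, PRKAA1 and PRKAG2 to PRKAB1 (2.07 ± 0.495 FPKM, SD, n = 3). The ranges of neighbors in this order were separate except for PRKAB2 with PRKAA2 and for PRKAG2 with PRKAB1. In ST, the order was PRKAB2, PRKAA2, PRKAG1, PRKAA1, PRKAG3, PRKAG2 and PRKAB1. There, each pair of neighbors from PRKAA1 down to PRKAB1 overlapped, although PRKAA1 (4.48 to 7.38 FPKM) lay wholly above PRKAB1 (2.79 to 2.93 FPKM). By FPKM, PRKAG3 was the leading gamma gene in every LT library, while PRKAG1 led in every ST library, by the least in that of pig 2. The order of PRKAG3 among the genes depends on the length by which its fragments are divided. Its gene model runs 4292 bases beyond the RefSeq gene at the 3′ side, with transcripts of 3266 to 5677 bases, and how well that stretch was covered was not tested.

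**Figure D1:**
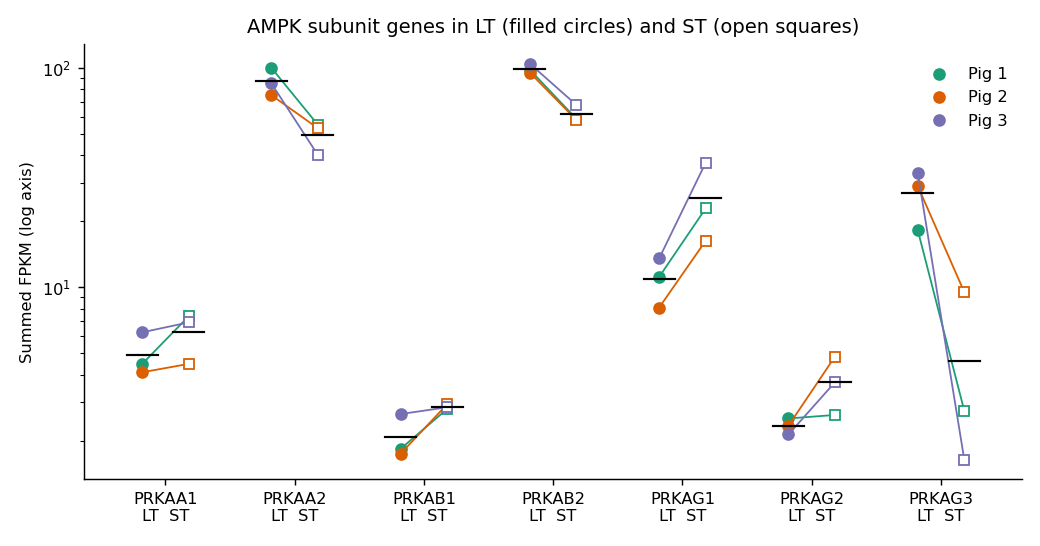
Summed FPKM (log axis) of the 7 AMPK subunit genes in LT (filled circles) and ST (open squares), with a line joining the muscles of each pig and a black bar at the mean of 3 libraries. PRKAG3 was lower in ST by the widest margin of the 7, least in pig 2, while PRKAG1 lay higher in ST of all 3 pigs.

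The 7 genes were then compared between the muscles in 1 limma fit over all 19672 genes. None of them passed an adjusted p of 0.05, which 114 genes (0.58%) passed in all, 81 higher (0.412%) and 33 lower (0.168%) in ST. Unadjusted p-values were under 0.05 for 5 of the 7, 2 higher and 3 lower in ST, beside 18.8% of all genes. The 2 muscles were separate in their values for 6 of the 7 genes, beside 24.7% of all genes, with 3 higher (16.6% of all genes) and 3 lower (8.08%) in ST. Of the 7 log2 fold changes, 4 were above 0, beside 61.3% of those of all genes. When the pig was entered as a block, PRKAG1 rose and PRKAG3 fell in ST at an adjusted p under 0.05 in limma, 2 of 7 genes beside 1052 of 19672 (5.35%), or 3.87% that rose and 1.47% that fell. Both genes also passed in limma without ST of pig 2, in which 1148 of 19515 genes (5.88%) did, 3.91% higher and 1.97% lower. That fit is a description and not a test, since fast and slow fiber genes helped to single out the library left out. The median log2 fold change of all genes was 0.13 for FPKM as deposited, 0.23 after rescaling to nuclear transcripts and -0.01 after quantile normalization. Relative to that median, each of the 7 genes kept its sign under these 3 scalings.

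PRKAG3 (ENSSSCG00000016200, chr15:120855194-120866332 on the minus strand of Sscrofa11.1) encodes the gamma3 subunit. Its level was 18.3, 29.0 and 33.3 FPKM in LT and 2.74, 9.52 and 1.64 FPKM in ST of pigs 1, 2 and 3. The muscles did not overlap, and ST of pig 2 lay closest to LT. The means were 26.9 ± 7.76 in LT and 4.63 ± 4.27 FPKM in ST (SD, n = 3), a 5.80-fold lower mean in ST. Within pigs, LT exceeded ST by 6.67-fold, 3.05-fold and 20.3-fold. The log2 fold change was -2.85 (standard error 0.57, 95% interval -4.17 to -1.54), with an adjusted p of 0.0681 in limma. With the pig as a block, the standard error was 0.45 and the adjusted p from limma was 0.0291. Without ST of pig 2, the log2 fold change was -3.56, with an adjusted p of 0.00338 in limma, and over all alternatives tried the adjusted p ran from 0.00338 to 0.229. Since these are bulk samples, fewer fibers that express a gene and less RNA of it per fiber cannot be told apart.

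PRKAG1 (ENSSSCG00000000185, chr5:15033053-15049660, minus strand), which encodes the widely expressed gamma1 subunit, went in the other direction. It had 11.2, 8.09 and 13.6 FPKM in LT and 22.9, 16.3 and 37.1 FPKM in ST. The lowest ST library, that of pig 2, was above the highest LT library. The ratio of ST to LT was 2.05, 2.02 and 2.73 within the 3 pigs. The mean was 10.9 ± 2.74 in LT and 25.5 ± 10.6 FPKM in ST (SD, n = 3). Its log2 fold change was 1.16 (standard error 0.32, 95% interval 0.42 to 1.90), with an adjusted p of 0.119 in limma. It was 0.0251 in limma with the pig as a block, where the standard error was 0.17. Without ST of pig 2, the log2 fold change was 1.44 with an adjusted p of 0.0374 in limma.

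PRKAG2 (ENSSSCG00000016432, chr18:5475077-5744658, plus strand) encodes the gamma2 subunit, which is known for its role in heart muscle. Its level was low, with 2.52, 2.34 and 2.13 FPKM in LT and 2.62, 4.84 and 3.70 FPKM in ST. All ST libraries were above LT, although in pig 1 the ratio was only 1.04. On the log2 scale, ST differed from LT by 0.61 (standard error 0.25), with an adjusted p of 0.238 in limma and of 0.166 with the pig as a block. It was 0.40 without ST of pig 2, with an adjusted p of 0.335 in limma, and also 0.40 after quantile normalization.

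Since FPKM is scaled by length, the gamma genes were set against each other within a library. The shares depend on the transcript lengths used, with the limit given above for PRKAG3. PRKAG3 made up 57.2, 73.6 and 68.0% of the summed gamma FPKM in LT and 9.68, 31.01 and 3.86% in ST. For PRKAG1, LT had 34.9, 20.5 and 27.7%, while ST had 81.1, 53.2 and 87.4%. Among the gamma genes, the main one was thus PRKAG3 in LT and PRKAG1 in ST, and the muscles did not overlap for either gene. The share of PRKAG3 differed by -51.4 percentage points between the means of ST and LT, and that of PRKAG1 by 46.2. PRKAG2 held 6.06 ± 1.78% in LT and 11.2 ± 3.92% in ST (SD, n = 3), a difference of 5.18 percentage points. A 2-sided exact permutation test gave p = 0.1 for each, which is the smallest p that 3 against 3 libraries allow. All 3 pigs had the same direction for each gene, for which an exact sign-flip test cannot give a p under 0.25. Without ST of pig 2, the differences were -59.5 for PRKAG3, 56.5 for PRKAG1 and 2.92 percentage points for PRKAG2. With the most abundant transcript of each gene alone, the muscles overlapped for PRKAG2, which differed by 4.70 percentage points (p = 0.6, 2-sided exact permutation test).

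Dividing the level of PRKAG3 by that of PRKAG1 gave 1.64, 3.59 and 2.46 for LT, and 0.119, 0.583 and 0.0442 for ST. Every LT library was above 1 and every ST library was below it, which depends on the length used for PRKAG3 as the shares do. The mean difference was -4.07 on the log2 scale (p = 0.1, 2-sided exact permutation test, n = 3 per muscle), and it was -5.07 without ST of pig 2.

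**Figure D2:**
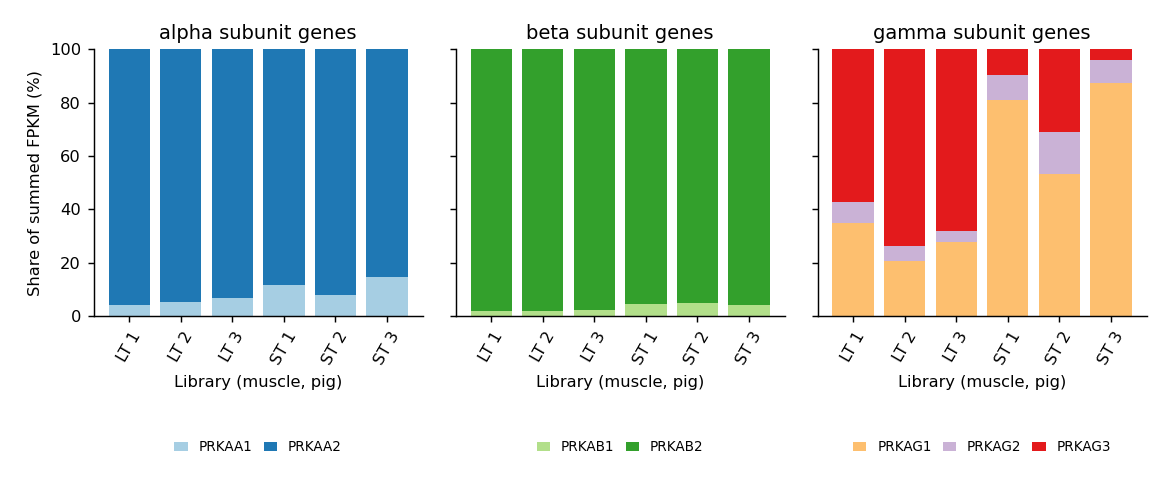
Share (%) of each gene in the summed FPKM of the alpha, beta and gamma subunit genes, 1 bar per library of LT and ST in pigs 1 to 3. PRKAA2 and PRKAB2 held over 85% in each library, while PRKAG3 held 57.2 to 73.6% of gamma in LT and 3.86 to 31.01% in ST.

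The genes of the alpha subunit carry the kinase domain. PRKAA2 (ENSSSCG00000036145, chr6:155681781-155754272, minus strand) had 100.4, 75.4 and 85.3 FPKM in LT and 55.1, 53.2 and 40.2 FPKM in ST. LT was above ST without overlap, and ST of pig 2 lay between the other ST libraries. Within pigs, LT exceeded ST by 1.82-fold, 1.42-fold and 2.12-fold. The means were 87.0 ± 12.6 and 49.5 ± 8.14 FPKM (SD, n = 3), with a log2 fold change of -0.82 (standard error 0.20, 95% interval -1.29 to -0.34). The adjusted p in limma was 0.0985, and 0.0519 with the pig as a block. It was 0.0641 without ST of pig 2, where the log2 fold change was -0.87, so the difference did not pass in any of the 3 fits.

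PRKAA1 (ENSSSCG00000024598, chr16:25745321-25783610, minus strand), for the more widely expressed alpha1 subunit, had 4.47, 4.10 and 6.24 FPKM in LT and 7.38, 4.48 and 6.92 FPKM in ST. The muscles overlapped, since ST of pig 2 lay within the LT range. This came to 0.33 on the log2 scale (standard error 0.26), and the adjusted p in limma was 0.533. Across single left-out libraries it ran from 0.19 without ST of pig 1 to 0.55 without that of pig 2 (adjusted p = 0.206 in limma), and it was 0.15 after quantile normalization. PRKAA2 held 94.6 ± 1.30% of the alpha FPKM in LT and 88.6 ± 3.48% in ST (SD, n = 3). The difference of -6.01 percentage points had p = 0.1 in a 2-sided exact permutation test, was in the same direction in all 3 pigs, and was -7.83 without ST of pig 2.

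The beta subunit joins alpha and gamma. PRKAB2 (ENSSSCG00000006703, chr4:100378049-100394337, plus strand) had 98.3, 95.4 and 105 FPKM in LT and 58.7, 58.0 and 67.9 FPKM in ST. The spread within each muscle was small beside the gap between them, with coefficients of variation of 4.82% in LT and 8.97% in ST. The 3 ratios of LT to ST, 1.67, 1.64 and 1.54, were also close to each other. ST of pig 2 did not stand apart for this gene. In limma, its log2 fold change was -0.69 (standard error 0.17, 95% interval -1.08 to -0.30), with an adjusted p of 0.0927, against 0.0555 with the pig as a block and 0.0741 without ST of pig 2.

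PRKAB1 (ENSSSCG00000009840, chr14:33193568-33217538, minus strand), the other beta gene, had 1.84, 1.74 and 2.64 FPKM in LT and 2.79, 2.93 and 2.84 FPKM in ST. ST was higher without overlap but LT of pig 3 came close to it. On the log2 scale, PRKAB1 differed by 0.46 (standard error 0.22), and the adjusted p in limma was 0.294. After quantile normalization the log2 fold change of PRKAB1 was 0.25 (adjusted p = 0.539 in limma). PRKAB2 held 97.97 ± 0.374% of the beta FPKM in LT and 95.5 ± 0.405% in ST (SD, n = 3), which differed by -2.42 percentage points (p = 0.1, 2-sided exact permutation test). Without ST of pig 2, this difference was -2.24, and the log2 fold change of PRKAB1 was 0.45 (adjusted p = 0.318 in limma).

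**Figure D3:**
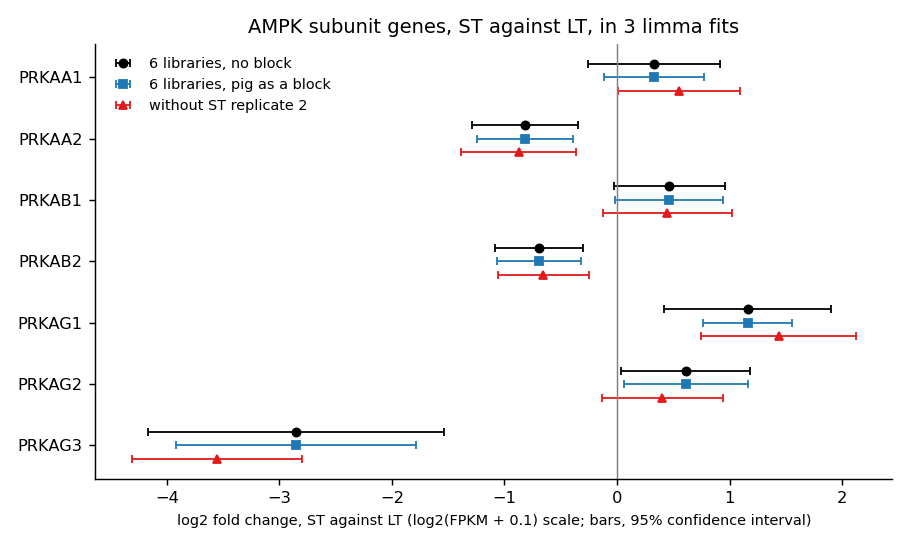
Log2 fold change of ST against LT, on the log2(FPKM + 0.1) scale, for the 7 AMPK subunit genes in limma over all 6 libraries (black circles), with the pig as a block (blue squares) and without ST of pig 2 (red triangles). Bars are unadjusted 95% confidence intervals, and PRKAG3 lies between -3.56 and -2.85 while the others lie between -1 and 1.5.

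One subunit of each kind stands in a complex, so the levels were also summed per subunit. The alpha genes summed to 91.9 ± 12.7 FPKM in LT and 55.8 ± 7.89 FPKM in ST (SD, n = 3), a mean difference of -0.72 on the log2 scale. The beta genes summed to 101.5 ± 5.28 FPKM in LT and 64.4 ± 5.505 FPKM in ST, a difference of -0.66. For both, the muscles did not overlap (p = 0.1 each, 2-sided exact permutation test), and without ST of pig 2 the differences were -0.75 and -0.62. The gamma genes summed to 32.0, 39.4 and 49.0 FPKM in LT and to 28.3, 30.7 and 42.4 FPKM in ST. This sum overlapped between the muscles, with a difference of -0.25 on the log2 scale (p = 0.4, 2-sided exact permutation test, n = 3 per muscle), although ST was lower in all 3 pigs, and it was -0.19 without ST of pig 2. This small difference depended on the libraries, from -0.09 without LT of pig 3 and -0.13 without ST of pig 1 to -0.40 without LT of pig 1 and -0.42 without ST of pig 3. Rescaling to nuclear transcripts gave -0.14. PRKAG3 and PRKAG1 thus differed in opposite directions while the sum of all 3 gamma genes lay closer, a contrast that was not tested.

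The files list 18 transcripts for the 7 genes, from 1 for PRKAA2 to 5 for PRKAG2. Of these, 16 passed the filter and were tested with 52102 transcripts, and 1 transcript of PRKAG2, ENSSSCT00000025093, was listed at 0 in all libraries. In limma, none of the 16 passed an adjusted p of 0.05, where 76 of all transcripts (0.146%) did, and 8 had an unadjusted p under 0.05, beside 9.69% of all. The lowest adjusted p in limma was 0.228, and it was 0.204 with the pig as a block, where again none of the 16 and 0.00384% of all transcripts passed. FPKM did not overlap between the muscles for 8 of the 18, beside 16.3% of the transcripts tested. The share of a transcript in its gene overlapped between the muscles for all 18. For the main transcripts of PRKAA1, PRKAG1, PRKAG2 and PRKAG3, the sign of the difference in share turned in at least 1 case when a library was left out.

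PRKAG3 had 3 transcripts. The longest, ENSSSCT00000033825 with 14 exons and 5677 bases, had 13.6, 14.8 and 25.8 FPKM in LT and 2.17, 7.48 and 1.01 FPKM in ST. ENSSSCT00000017641 (13 exons, 5526 bases) had 4.47, 11.9 and 6.57 FPKM in LT and 0.417, 1.87 and 0.627 FPKM in ST. ENSSSCT00000036402 (11 exons, 3266 bases) had 0.175, 2.29 and 1.002 FPKM in LT and 0.150 and 0.174 FPKM in ST of pigs 1 and 2, and was listed at 0 in ST of pig 3. All 3 transcripts were lower in ST without overlap, with log2 fold changes of -2.70, -2.99 and -2.24, although the gap of the third was no wider than that from 0.175 in LT of pig 1 to 0.174 in ST of pig 2. Its log2 fold change also depended on the pseudocount, with -3.51 for 0.01 and -0.84 for 1. They were -3.45, -3.55 and -2.51 without ST of pig 2, with adjusted p-values of 0.0609, 0.0655 and 0.434 in limma, and none of the transcripts of the 7 genes passed in that fit. The longest one held 67.6 ± 14.4% of PRKAG3 in LT and 73.2 ± 9.96% in ST (SD, n = 3), with p = 0.5 in a 2-sided exact permutation test.

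For PRKAG1, the main transcript ENSSSCT00000000195 (13 exons, 1890 bases) had 10.3, 6.61 and 12.5 FPKM in LT and 20.6, 9.30 and 35.0 FPKM in ST. It overlapped between the muscles because of ST of pig 2. The shorter ENSSSCT00000061630 (9 exons, 1604 bases) had 0.845, 1.49 and 1.02 FPKM in LT and 2.36, 7.03 and 2.09 FPKM in ST. In ST of pig 2 it held 43.0% of the gene, against 5.64 to 18.4% in the other libraries. The gene level of PRKAG1 in ST of pig 2 was thus made up of both transcripts, and how well the assembly divided fragments between them was not tested.

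PRKAB2 had 3 transcripts, of which ENSSSCT00000056624 (7 exons, 5257 bases) held 63.1 ± 2.72% in LT and 65.9 ± 4.41% in ST (SD, n = 3). Its level was 59.1, 62.4 and 67.0 FPKM in LT and 41.4, 35.8 and 44.4 FPKM in ST. ENSSSCT00000036163, with 7 exons and 1054 bases, was also lower in ST without overlap. ENSSSCT00000007342, with 9 exons and 2380 bases, overlapped because LT and ST of pig 2 had 9.48 and 9.91 FPKM. PRKAA2 had ENSSSCT00000055782 alone, and PRKAA1 was almost wholly ENSSSCT00000030818, with ENSSSCT00000082538 at 0.0302 FPKM or less. For PRKAB1, ENSSSCT00000010784 held 77.8 ± 17.1% in LT and 90.2 ± 3.36% in ST (SD, n = 3), with ENSSSCT00000068022 as the rest. That difference of 12.4 percentage points was 2.57 without LT of pig 2, in which the share was 58.2%. Of the PRKAG2 transcripts, ENSSSCT00000047240 led with 68.5 ± 11.3% in LT and 70.7 ± 7.87% in ST. ENSSSCT00000017893, ENSSSCT00000062215 and ENSSSCT00000082263 were below 0.7 FPKM in each library.

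**Figure D4:**
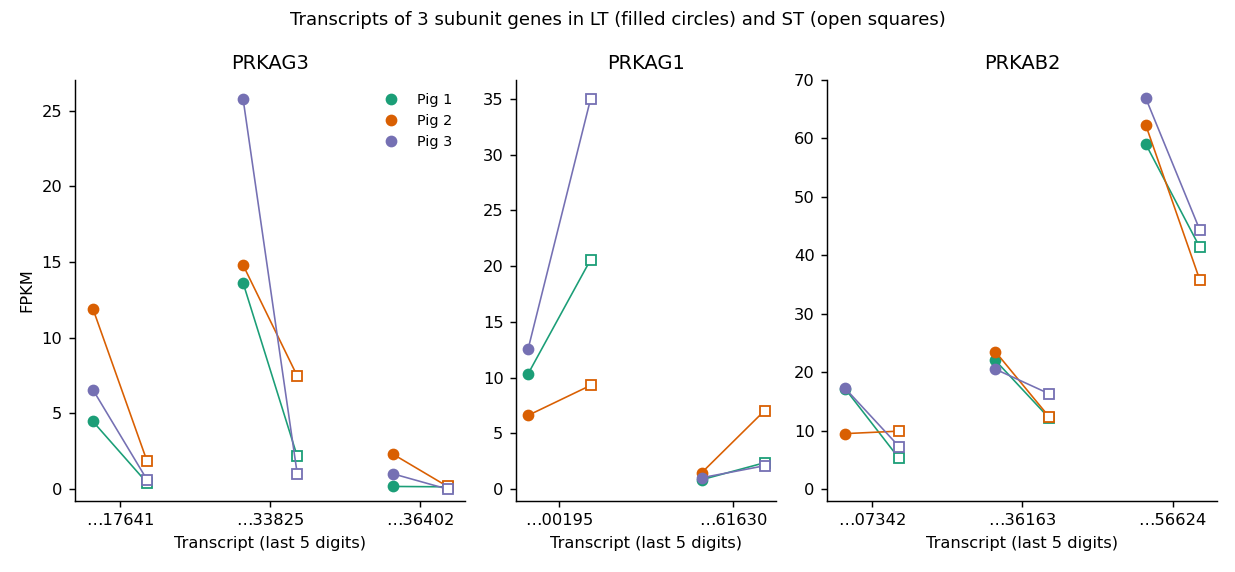
FPKM (linear axes from 0) of each transcript of PRKAG3, PRKAG1 and PRKAB2 in LT (filled circles) and ST (open squares), with lines joining the muscles of a pig and the last 5 digits of each transcript as labels. The 3 transcripts of PRKAG3 were lower in ST of all 3 pigs, and the shorter transcript of PRKAG1 reached 7.03 FPKM in ST of pig 2.

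Other transcripts overlap the 7 genes, which matters because the use of strand in the counting is not given in the sources used here. Over PRKAG3, 6 unannotated mRNA transcripts of the locus XLOC_046832 (chr15:120856832-120878074) lie on the opposite strand. They summed to 0.979, 1.23 and 1.56 FPKM in LT and 0.308, 0.312 and 0.0775 FPKM in ST, low beside PRKAG3 itself. The log2 fold change of this locus was -2.11 (standard error 0.38), in the direction of PRKAG3, with an adjusted p of 0.0598 in limma and 0.0355 with the pig as a block. Over PRKAG1, the gene ENSSSCG00000035856 lies on the same strand, with 2.83 ± 0.352 FPKM in LT and 3.96 ± 1.04 FPKM in ST (SD, n = 3). The spans of these genes overlap by 15720 bases, and strand cannot separate them. How fragments were divided between them was not tested, a limit that also holds for the shares and the ratio with PRKAG1. The loci that overlap the other 5 genes were on the opposite strand, and none had a mean above 0.7 FPKM in either muscle. As for PRKAG3, the gene models of PRKAB1, PRKAA2 and PRKAA1 end beyond the RefSeq gene at the 3′ side. They do so by 7791, 1611 and 581 bases, so the same limit applies to their levels. The transcript of PRKAA2 has 2549 bases.

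To find genes with the pattern of PRKAG3, the log2(FPKM + 0.1) values of each gene were centered on their mean over the 6 libraries, for 11096 genes with a mean FPKM of at least 1. Likeness was the root mean square difference from PRKAG3, which had a median of 1.73 over these genes. The nearest was XLOC_085493 (0.29), an unannotated locus on chromosome 4 that lies within the span of AMPD1, followed by SOWAHB (0.30) and ENSSSCG00000003521 (0.31). AMPD1, the muscle AMP deaminase, was the fourth (0.34), and XLOC_097039 on chromosome 6, an unannotated locus, was the fifth (0.35). AMPD1 had 283, 298 and 340.04 FPKM in LT and 50.9, 174 and 25.3 FPKM in ST. Like PRKAG3, AMPD1 was highest among the ST libraries in that of pig 2, which follows from its choice by likeness over these same libraries. The pattern was not particular to AMPD1. Of the measured fast fiber genes, all but PVALB (rank 11028) ranked from 25 (TNNI2, 0.54) to 149 (ACTN3, 0.95). The glycogen genes ranked from 9 (PHKA1, 0.43) to 10866 (GBE1, 2.48). These likenesses rest on 6 libraries and are given as a description.

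The pathway around AMPK was described with lists of genes upstream of it, of its targets, of the related kinases, of glycogen metabolism and of AMP handling. They hold 60 measured genes, of which 59 were tested. In limma none of the 59 passed an adjusted p of 0.05 (0.58% of all genes did), 23 had an unadjusted p under 0.05 (18.8% of all genes), 14 passed with the pig as a block (5.35% of all genes) and 16 passed without ST of pig 2 (5.88% of all genes).

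Among the 13 genes upstream of AMPK, none passed in the 3 fits, and the median log2 fold change was 0.06, beside 0.13 for all genes. STK11, the main AMPK kinase in muscle, had 29.8 ± 2.49 FPKM in LT and 25.7 ± 2.73 FPKM in ST (SD, n = 3), and the muscles overlapped. The most abundant member was STRADB, a pseudokinase that binds STK11, with 113 ± 26.7 and 91.6 ± 12.6 FPKM. The smallest unadjusted p-values belonged to FNIP2 and FNIP1, which bind AMPK together with folliculin, and to PPM1A, a phosphatase. FNIP2 had 1.17, 1.21 and 1.49 FPKM in LT and 2.53, 2.15 and 1.95 FPKM in ST, which differed by 0.73 on the log2 scale (adjusted p = 0.126 in limma). The log2 fold change was -0.48 for PPM1A and 0.43 for FNIP1, with adjusted p-values of 0.272 and 0.328 in limma. STK11 and STRADB were added to the genes named by rule after their values were seen.

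Of 19 measured targets of AMPK, 6 were higher and 3 lower in ST at an unadjusted p under 0.05, where 13% of all genes were higher and 5.75% lower, and the median log2 fold change was 0.02. With the pig as a block, 4 rose and 1 fell in limma, beside 3.87% and 1.47% of all genes. When ST of pig 2 was left out, 3 rose and 3 fell, beside 3.91% and 1.97%. EEF2K, the kinase that slows translation elongation, had 26.6, 33.5 and 28.04 FPKM in LT and 11.0, 16.4 and 10.3 FPKM in ST. Its log2 fold change was -1.24, with an adjusted p of 0.058 in limma, 0.0208 with the pig as a block and 0.00917 without ST of pig 2. PPARGC1A, a coactivator of mitochondrial biogenesis, had 4.49, 5.81 and 3.05 FPKM in LT and 10.5, 68.7 and 23.1 FPKM in ST. Here, ST of pig 2 was the highest library and not the one nearest to LT. For PPARGC1A, the log2 fold change was 2.54, with an adjusted p of 0.0879 in limma and 0.0291 with the pig as a block, and 1.83 without ST of pig 2 (adjusted p = 0.0415 in limma). PFKFB2, which makes an activator of glycolysis, had a log2 fold change of 1.29 with an adjusted p of 0.101 in limma, 0.0401 with the pig as a block and 0.0152 without ST of pig 2. The other targets that rose with the pig as a block were TBC1D1, a regulator of glucose transporter traffic, and PNPLA2, the lipase that starts the breakdown of stored fat, with log2 fold changes of 1.46 and 1.17. Their adjusted p-values were 0.0404 and 0.0315 in limma with the block, 0.104 and 0.188 without it, and 0.0179 and 0.0848 without ST of pig 2. Besides EEF2K, the targets that fell in limma without ST of pig 2 were ULK1, a kinase that starts autophagy, and PFKFB3, another enzyme that makes an activator of glycolysis. Their log2 fold changes were -0.99 and -3.002 in that fit (adjusted p = 0.0379 and 0.0264) and -0.71 and -2.19 in limma over all 6 libraries (adjusted p = 0.211 and 0.169). TBC1D1, PNPLA2, ULK1 and PFKFB3 were named after their values were seen.

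The kinases related to AMPK share its catalytic fold and are mostly activated by STK11 as well. Of 11 tested, 3 were higher and none was lower in ST at an unadjusted p under 0.05, beside 13% and 5.75% of all genes. The median log2 fold change was 0.35, beside 0.13 for all genes. SNRK had 6.98, 9.39 and 8.12 FPKM in LT and 14.7, 16.1 and 14.5 FPKM in ST, with little spread within a muscle. Its log2 fold change was 0.89, with an adjusted p of 0.0668 in limma, 0.0335 with the pig as a block and 0.0528 without ST of pig 2. SIK1 differed by 1.64 on the log2 scale, with an adjusted p of 0.109 in limma and 0.0285 with the block, and by 1.30 without ST of pig 2. For NUAK1, the difference was 0.80, with an adjusted p of 0.103 in limma and 0.0536 with the block. With the pig as a block, 2 of the 11 rose and none fell in limma, beside 3.87% and 1.47% of all genes. Without ST of pig 2, none of the 11 passed, beside 5.88% of all genes. BRSK2, with 0.0565 FPKM or less in each library, did not pass the filter.

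Most genes of glycogen metabolism had lower values in ST. Of 12 tested, 7 were lower and 1 was higher at an unadjusted p under 0.05, where 5.75% of all genes were lower, and the median log2 fold change was -1.18. With the pig as a block, 5 fell and 1 rose in limma, where 1.47% of all genes fell and 3.87% rose. In the fit without ST of pig 2, 7 fell and 1 rose, beside 1.97% and 3.91%. The list summed to 2470.1, 3024 and 2127 FPKM in LT and to 973, 2144 and 884 FPKM in ST, and ST of pig 2 lay within the LT range. PPP1R3D, which brings protein phosphatase 1 to glycogen, had 12.9, 20.8 and 20.3 FPKM in LT and 6.68, 7.40 and 7.75 FPKM in ST. Its log2 fold change was -1.26, with an adjusted p of 0.058 in limma, 0.0232 with the pig as a block and 0.0347 without ST of pig 2. In contrast to most of the list, it was as low in ST of pig 2 as in the other ST libraries. PHKA1, the muscle alpha subunit of phosphorylase kinase, had 154, 244 and 218 FPKM in LT and 26.9, 131 and 27.1 FPKM in ST. PHKA1 had a log2 fold change of -2.14, with an adjusted p of 0.113 in limma, 0.0342 with the block and 0.00277 without ST of pig 2, where the log2 fold change was -2.90.

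GBE1, the branching enzyme, was the gene of the glycogen list that rose in ST with the block, with 14.5, 6.44 and 13.5 FPKM in LT and 36.4, 20.4 and 40.7 FPKM in ST. The log2 fold change was 1.52, with an adjusted p of 0.0929 in limma, 0.0139 with the pig as a block and 0.0311 without ST of pig 2. PYGM, the muscle glycogen phosphorylase and the most abundant gene of the list, had 983, 1429.96 and 748 FPKM in LT and 346, 687 and 264 FPKM in ST. It was among the 5 that fell with the block (adjusted p = 0.0322 in limma, 0.0245 without ST of pig 2), and was named after its values were seen. GYS1, the muscle glycogen synthase, which is also on the list of AMPK targets, had 26.2 ± 7.54 FPKM in LT and 26.3 ± 4.49 FPKM in ST (SD, n = 3).

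Of 5 genes of AMP handling tested, 2 were lower in ST at an unadjusted p under 0.05 (5.75% of all genes), and both fell in limma without ST of pig 2 (1.97% of all genes). AMPD1, which turns AMP into IMP, had a log2 fold change of -2.33, with an adjusted p of 0.103 in limma, 0.0491 with the pig as a block and 0.00383 without ST of pig 2. AK1, the adenylate kinase that interconverts AMP, ADP and ATP, had 676, 678 and 405 FPKM in LT and 132, 554 and 62.3 FPKM in ST. ST of pig 2 lay within the LT range, and the adjusted p was 0.226 in limma for a log2 fold change of -1.78, against 0.0134 for -2.65 without that library. NT5C1A, which removes phosphate from AMP, differed by 1.14 on the log2 scale (adjusted p = 0.402 in limma).

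**Figure D5:**
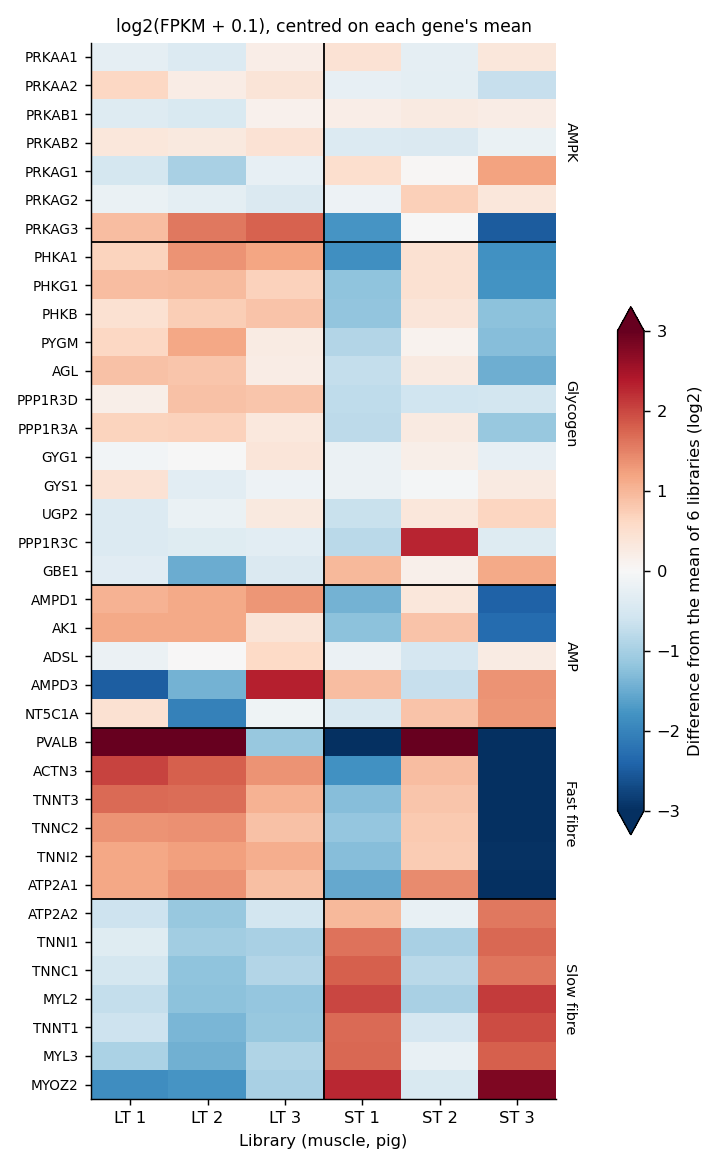
Log2(FPKM + 0.1) of each gene minus its mean over the 6 libraries, in LT and ST of pigs 1 to 3, for the AMPK subunit genes and the lists of glycogen metabolism, AMP handling and fast and slow fibers (red high, blue low, color scale ending at -3 and 3). In ST of pig 2, PRKAG3 lay between LT and the other ST libraries, and most genes of the fast fiber list lay near their LT values.

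All measured fiber type genes are given, since ST of pig 2 stood apart in them. In the slow fiber list, the log2 fold changes of ST against LT were 3.07 for MYOZ2, 2.19 for MYL3, 2.096 for TNNT1, 2.09 for MYL2, 1.73 for TNNC1, 1.59 for TNNI1 and 1.54 for ATP2A2. In the same order, they were 4.06, 2.85, 2.87, 3.09, 2.57, 2.47 and 2.05 without ST of pig 2. All 7 had an unadjusted p under 0.05 in limma (13% of all genes were higher at that level) and none passed after adjustment. With the pig as a block 4 rose (3.87% of all genes), and all 7 rose without ST of pig 2 (3.91% of all genes). In the fast fiber list, the values were -4.07 for PVALB, -3.43 for ACTN3, -2.93 for TNNT3, -2.40 for TNNC2, -2.32 for TNNI2 and -2.28 for ATP2A1. Without that library they were, in the same order, -6.92, -4.75, -4.08, -3.39, -3.28 and -3.56. There were 4 of 6 with an unadjusted p under 0.05 in limma (5.75% of all genes were lower at that level). None passed in either fit over 6 libraries, and all 6 fell without ST of pig 2 (1.97% of all genes). Since ST of pig 2 was singled out partly by both of these lists, their counts without it are a description and not a test. PVALB was listed at 0 in ST of pig 3. The slow and fast myosin heavy chain genes MYH7, MYH1, MYH2 and MYH4 and the fast light chain gene MYLPF were not matched by symbol and were not used here. The part of fiber type in the differences of the AMPK genes was not tested.

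Markers of other cells were compared as well. All 4 measured endothelial markers were higher in ST at an unadjusted p under 0.05 (13% of all genes), with sums of 71.0, 47.1 and 54.9 FPKM in LT and 164, 113 and 128 FPKM in ST. PECAM1, the most abundant, rose from 31.6 ± 7.95 to 81.5 ± 7.98 FPKM (SD, n = 3, adjusted p = 0.0438 in limma), and CDH5 rose by 1.22 on the log2 scale (adjusted p = 0.0408 in limma). Their adjusted p-values in limma were 0.021 and 0.0142 without ST of pig 2, and 0.0187 and 0.0204 with the pig as a block. KDR, a receptor for vascular growth factor, also rose with the block (adjusted p = 0.0324 in limma, 0.1999 without the block), and TEK passed without ST of pig 2 (adjusted p = 0.048 in limma). The adipocyte list summed to 115, 65.2 and 180.1 FPKM in LT and to 148, 57.0 and 47.3 FPKM in ST, led by FABP4, and none of its 5 genes passed. None of the fibroblast, leukocyte, satellite cell and smooth muscle markers passed in the 3 fits, and their most abundant genes were DCN, CD163, MEGF10 and CNN1. At an unadjusted p under 0.05, the leukocyte genes PTPRC and CD3E and the smooth muscle gene MYH11 were higher in ST without overlap. They differed by 0.52, 0.70 and 0.79 on the log2 scale. Of all genes, 13% were higher at that p and 16.6% were higher without overlap. The adipocyte gene LEP differed by -1.04, where 5.75% of all genes were lower at that p. All other measured genes of the leukocyte, smooth muscle and adipocyte lists overlapped between the muscles. Of the list of muscle genes, of which DES had the highest mean over the 6 libraries, MYBPC1, the myosin binding protein known from slow fibers, rose by 2.02 on the log2 scale (adjusted p = 0.0408 in limma), and MYOT rose with the pig as a block (adjusted p = 0.0371 in limma, 0.0735 without the block). CDH5, KDR, TEK, PTPRC, CD3E, MYH11, LEP, MYOT, MYBPC1, ACTA1 and CKM were named after their values were seen. None of these markers was listed at 0 in all libraries, and the part of these cells in the levels of the AMPK genes was not tested.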

How the data were processed

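RNA depleted of rRNA from LT and ST of 3 pigs was sequenced in 6 libraries. The authors used SOAPnuke to filter reads, HISAT2 to map them to Sscrofa11.1 and StringTie to assemble and quantify transcripts. The deposited unit is FPKM, 1 value per transcript and library, used as it stands. FPKM was summed per gene identifier and named through an Ensembl symbol table (113 of 127 list symbols, and MYOZ2 by position). A gene or transcript entered the comparison if any library had more than 0.1 FPKM. limma 3.58.1 (R 4.3.3) was fitted with a variance trend to log2(FPKM + 0.1), and Benjamini-Hochberg adjustment was made over all genes or all transcripts tested. Fold changes of low genes are understated on this scale. Shares and sums were compared with exact permutation tests in Python 3.11.15. No block is named in the study's Methods. The numbers in the sample titles pair the muscles of a pig, and residuals of the same pig correlated by 0.290, 0.261 and 0.292, so blocked values are given where they change a call.

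The 7 genes and the lists were chosen with earlier results of these data known. Named genes are the 7 members with their transcripts, the 3 with the smallest unadjusted p of each pathway list and any called, all fiber type genes, the most abundant gene and any at 0 of the other lists, and the 5 genes nearest to PRKAG3. One list chosen in this way is not reported here. LT and ST libraries are separate samples of 3 animals, and fragments per transcript were not used here. The alternatives were other pseudocounts, other filters, the block, rescaling to nuclear transcripts, quantile normalization, no variance trend, annotated transcripts only, the most abundant transcript alone, and leaving out each library. The block with each rescaling, and the ratio of PRKAG3 to PRKAG1 without each library, were added after seeing the data.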

Additional observations from a re-analysis of the deposited data

How the results depend on the processing

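The signs of the 7 gene differences held in each alternative run. PRKAG1 had a log2 fold change of 1.16 with the replicate block (adjusted p = 0.0251 in limma), 1.27 with the block and rescaling to nuclear transcripts, and 1.04 with the block and quantile normalization. For PRKAG3 these values were -2.85 (adjusted p = 0.0291), -2.74 and -2.99, and all 6 passed an adjusted p of 0.05 in limma. Leaving out 1 library gave 0.85 to 1.44 for PRKAG1 and -3.56 to -2.32 for PRKAG3, and both passed only without ST replicate 2. The number of subunit genes called was 0, and 2 with the replicate block, alone or with either rescaling, and 0 to 2 when 1 library was left out. The replicate block changed no other call of a subunit gene or transcript.

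The share of PRKAB2 differed by -3.49 percentage points when only the most abundant transcript of each gene was used, and the beta sum by -0.55 on the log2 scale after rescaling to nuclear transcripts. ENSSSCT00000062215 of PRKAG2 had a log2 fold change of -0.22, which ranged from -0.54 to 0.25 when 1 library was left out, and turned to 0.05 without LT replicate 3 and to 0.25 without ST replicate 2.

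Over all protein-coding genes, 114 were called, against 9 without a filter, 189 with FPKM above 1 in at least 3 libraries, 1052 with the replicate block, 328 after rescaling, 61 after quantile normalization, 29 without a variance trend, 1690 with the block and rescaling, 478 with the block and quantile normalization, and 12 (without LT replicate 3) to 1148 (without ST replicate 2) when 1 library was left out. Of the pathway genes, 0 were called, against 2 with FPKM above 1, 14 with the replicate block, 1 after rescaling, 16 with the block and rescaling, 5 with the block and quantile normalization, and 0 to 16 (without ST replicate 2) when 1 library was left out. The cause of these shifts was not tested. With 3 pigs, exact tests could not reach p = 0.05, and the fragments behind single values were not estimated.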
